A study of Mus musculus with 24 samples.

Results

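The genes described here are 9 transcription regulators listed as factors of naive and quiescent T cells (Tcf7, Lef1, Foxo1, Foxp1, Bach2, Satb1, Id2, Id3 and Bcl6) and Axin2, a gene that Wnt signalling switches on. They were picked by name as known regulators, at a time when earlier results of these data were known, and all 10 were found among the 22009 named genes of the table the authors deposited. The group name is that of the list, and not every gene was highest at rest. Of the 18 cultures described below, Bach2 was above both resting libraries in 18, Foxp1 in 17, and Id3 and Bcl6 in 13 each. All 10 passed the filter used for testing, a mean over the time course of 1 RPKM or more; RPKM is a read count divided by transcript length and by library depth.

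RNA was sequenced from splenic CD4+ T cells of adult wildtype C57BL/6 mice, isolated by negative magnetic selection and pooled from 6 mice. The time course held 20 libraries, 2 of resting cells and 18 of cultures stimulated through CD3e and CD28, harvested 4, 8, 12, 16, 20 or 24 h later under 3 conditions. Th0 cultures had no further additions, Th1 cultures were given IL-12 with an antibody to IL-4, and Th2 cultures IL-4 with antibodies to IL-12 and IFN-γ. For another 4 libraries, actinomycin, an inhibitor of transcription, was added after 16 h of stimulation and left for 0, 1, 2 or 4 h, and no source names the skewing condition. The labels describe purified CD4+ cells while the study's methods name naive cells, so how far memory cells were removed is not settled here. Each culture was sequenced once from 1 pool of cells, so the tests use time points or conditions in place of biological replicates, and their p-values measure only the spread between these libraries. For each gene, the fit takes part of that spread from all genes tested. The titles of the resting and the cultured libraries carry different numbers whose meaning is not stated, so activation cannot be told apart from any other difference between these sets of libraries.

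TCF-1, encoded by Tcf7, and LEF-1 bind the same DNA motif and recruit either beta-catenin or Groucho/TLE co-repressors, and AXIN2 is a feedback component of the complex that destroys beta-catenin. FOXO1 keeps naive T cells in circulation by maintaining the homing and survival genes Ccr7, S1pr1, Klf2 and Il7r, and is expelled from the nucleus when antigen and costimulation activate AKT. FOXP1, BACH2, SATB1, BCL6 and the Id proteins, which sequester E proteins, restrain or direct the passage from naive to effector T cell.

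The values of many low genes were whole multiples of what 1 read is worth, and these steps gave each library's depth in mapped reads: 972 of 1526 genes with 1 transcript (63.7%) gave the same depth within 0.1%. It was 19759082 and 23541816 in the resting libraries, between 17512385 and 33017134 in the 18 cultures with a median of 25459028.5, and between 18052931 and 25735543 in the actinomycin libraries. Foxo1 and Id2 had whole-read steps themselves, within 0.02 of a read, and so have exact Poisson intervals that cover counting error only. Foxo1 was read at least 689 times and Id2 at least 800 times in every library. The other 8 genes have several annotated transcripts and their values did not fall on 1 step, so no counting interval is given for them. On the log2(RPKM + 0.5) scale the resting libraries differed with an SD of 0.18 over 10897 genes, and by at most 0.20 for any of the 10 genes.

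Axin2 and Foxo1 were lower than in resting cells from 8 h on, and Id2 at 4 h and again from 12 h on. Bach2 was higher from 4 to 20 h and Bcl6 from 4 to 12 h. Satb1 was higher at 4 h and Lef1 lower at 12 h, and Tcf7, Foxp1 and Id3 did not reach 2-fold at any time. A gene passed the test when it changed 2-fold or more with an adjusted p below 0.05 (limma, Benjamini-Hochberg). Folds and differences are on the log2(RPKM + 0.5) scale, where the change of weakly expressed genes comes out too small. At 4 h, Bach2, Satb1 and Bcl6 were higher, 3 of 10 genes where 2.61% of all 10897 tested were higher, and Id2 was lower, 1 of 10 beside 7.97% of all genes. At 8 h, Bach2 and Bcl6 were higher (2 of 10, beside 6.42%) and Axin2 and Foxo1 lower (2 of 10, beside 12.5%). At 12 h, Bach2 and Bcl6 were higher (2 of 10, beside 10.7%) and Lef1, Axin2, Foxo1 and Id2 lower (4 of 10, beside 16.4%). At 16 h and 20 h, Bach2 was the gene that was higher (1 of 10 at each time, beside 11.2% and 12.9%), and Axin2, Foxo1 and Id2 were lower (3 of 10 at each time, beside 14.5% and 16.1%). At 24 h, 0 of 10 were higher beside 12.7% of all genes, the highest being Bach2 at 0.81, and the same 3 genes were lower beside 17.4%. The 6 comparisons share the 2 resting libraries. The median log2 difference of the 10 genes at 24 h was -0.81, beside -0.04 over all genes tested.

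**Figure D1:**
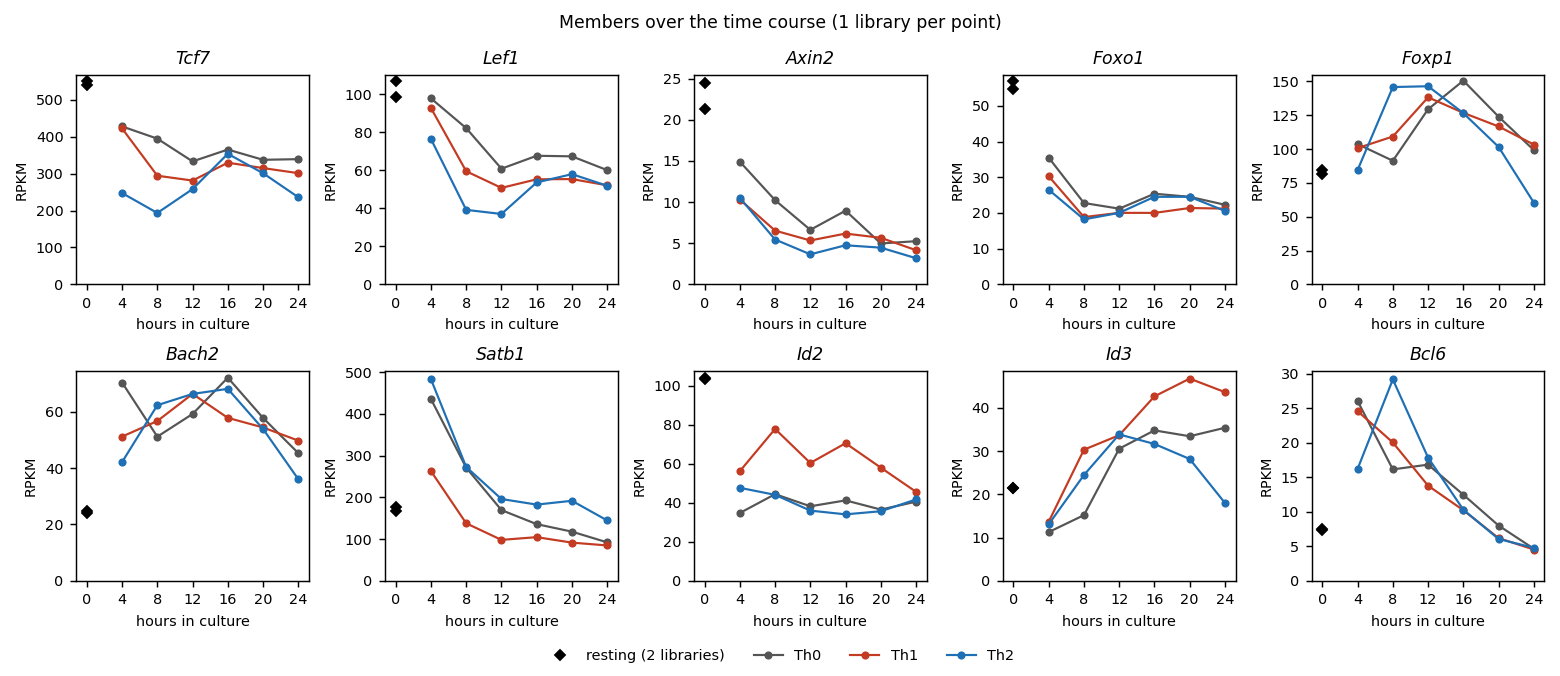
RPKM (vertical axes, each from 0) of the 10 genes against hours in culture, with black diamonds for the 2 resting libraries and lines for the Th0 (grey), Th1 (red) and Th2 (blue) cultures, 1 library per point. Tcf7, Lef1, Axin2, Foxo1 and Id2 lie below both resting libraries in all 18 cultures, Bach2 lies above both in all 18, and Satb1 and Bcl6 peak at 4 or 8 h.

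Tcf7 (chr11:52252371-52283014, minus strand, GRCm38) was the most abundant of the 10 genes, with 541 and 551 RPKM in the resting libraries. In Th0 cultures it stood at 428, 395, 333, 365, 337 and 339 RPKM from 4 to 24 h, and in Th1 cultures at 422, 294, 281, 329.6, 315 and 301 RPKM. In Th2 cultures the values were 247, 193, 258, 354, 301 and 236 RPKM. All 18 cultures were below both resting libraries. The Th2 culture was the lowest of its time point at 4, 8, 12, 20 and 24 h but not at 16 h, and the gap was widest at 8 h, where Th2 had 0.490 of the Th0 level. At 24 h the log2 difference from resting cells was -0.92 ± 0.25 (SE; adjusted p = 0.00448), short of 2-fold.

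Lef1 (chr3:131110471-131224356, plus strand) had 98.4 and 107 RPKM at rest. From 4 to 24 h it had 97.9, 82.2, 60.9, 67.7, 67.4 and 60.1 RPKM in Th0, and 92.8, 59.5, 50.8, 55.3, 55.4 and 52.1 RPKM in Th1. Th2 cultures had 76.5, 39.2, 37.0, 53.6, 58.0 and 51.9 RPKM. The level at 4 h was close to rest in Th0 and Th1, the lowest values were those of Th2 at 8 and 12 h, and by 24 h the 3 conditions lay within 60.1 and 51.9 RPKM. At 12 h the difference from rest was -1.07 ± 0.24 (adjusted p = 0.00102), and at 24 h it was -0.90 ± 0.24 (adjusted p = 0.00327). The difference at 12 h was under 2-fold with median-of-ratios scaling (-0.95) and without Th2 cultures (-0.88). Transcripts of other genes share 13.7% of its 50-base windows, the highest share among the 10 genes; next was Foxo1 with 6.80%.

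Axin2 (chr11:108920349-108950783, plus strand) had 24.4 and 21.3 RPKM at rest. In order of time it had 14.9, 10.2, 6.62, 8.95, 4.97 and 5.24 RPKM in Th0 and 10.3, 6.53, 5.33, 6.17, 5.65 and 4.15 RPKM in Th1. In Th2 it had 10.5, 5.45, 3.65, 4.75, 4.46 and 3.18 RPKM. All 18 cultures were below both resting libraries, the nearest being Th0 at 4 h, and the Th2 value was below the Th0 value at all 6 times. Axin2 fell 5.05-fold by 24 h (log2 difference -2.34 ± 0.29, adjusted p = 3.55e-06), the largest change of the 10 genes, and 4.77% of all genes fell further. It fell further between 4 and 12 h (-1.14 ± 0.26, adjusted p = 0.00158), while the step from 12 to 24 h was -0.27 ± 0.26 and did not pass.

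Foxo1 (chr3:52268336-52353221, plus strand, 1 annotated transcript) had 54.8 RPKM (95% Poisson interval 53.4 to 56.2) and 56.9 RPKM (55.6 to 58.2) at rest. The Th0 cultures had 35.5, 22.8, 21.2, 25.4, 24.5 and 22.3 RPKM, and the Th1 cultures 30.3, 18.8, 20.0, 20.0, 21.4 and 21.2 RPKM. The Th2 cultures had 26.5, 18.2, 20.0, 24.5, 24.5 and 20.6 RPKM. All conditions dropped by 8 h and then stayed below rest. Th2 went from 18.2 RPKM at 8 h (95% Poisson interval 17.4 to 19.0) to 24.5 RPKM at 16 h (23.7 to 25.4). Between the same times Th0 went from 22.8 to 25.4 RPKM and Th1 from 18.8 to 20.0 RPKM. Th1 and Th2 were below Th0 at 6 of 6 times, though Th0 and Th2 both rounded to 24.5 RPKM at 20 h. The Poisson intervals of Th0 and Th1 did not overlap at 4, 8, 16 and 20 h (at 8 h, 22.01 to 23.6 and 18.2 to 19.5) and overlapped at 12 and 24 h. These intervals cover counting error only, and the share of other genes so separated was not counted. Over the 6 times the Th1 minus Th0 difference was -0.20 ± 0.07 (limma, adjusted p = 0.198) and did not pass. The log2 difference from rest was -1.47 ± 0.13 at 8 h (adjusted p = 2.50e-07) and -1.37 ± 0.13 at 24 h (adjusted p = 3.05e-07), and the step from 12 to 24 h was 0.06 ± 0.12.

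Foxp1 (chr6:98925338-99522721, minus strand), a forkhead repressor that holds T cells quiescent, had 81.4 and 84.4 RPKM at rest. Th0 cultures gave 104, 91.3, 129, 151, 124 and 99.2 RPKM and Th1 cultures 101, 109, 138, 127, 117 and 103 RPKM. Th2 cultures gave 84.5, 146, 146, 127, 102 and 60.4 RPKM. Every culture but the Th2 culture at 24 h lay above both resting libraries, with the highest value of each condition at 12 or 16 h. At 12 h the difference from rest was 0.73 ± 0.21 (adjusted p = 0.00568), under 2-fold, and from 12 to 24 h it went down by -0.69 ± 0.18 (adjusted p = 0.0141), also under 2-fold.

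Bach2 (chr4:32238804-32586108, plus strand), a repressor of effector genes, had 24.3 and 24.7 RPKM at rest. In Th0 it had 70.5, 51.2, 59.3, 72.2, 57.9 and 45.4 RPKM, and in Th1 51.2, 56.8, 66.4, 57.9, 54.5 and 49.8 RPKM. In Th2 it had 42.2, 62.4, 66.4, 68.2, 53.9 and 36.1 RPKM. No culture overlapped the resting libraries, and the lowest culture, Th2 at 24 h, was still above them. The rise was 1.11 ± 0.17 at 4 h (adjusted p = 0.000141), was highest at 16 h (1.41 ± 0.17, adjusted p = 5.32e-06) and was 0.81 ± 0.17 at 24 h (adjusted p = 0.000679), below 2-fold. Without the Th0 cultures the change at 4 h was 0.91 ± 0.16, also below 2-fold.

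Satb1 (chr17:51736187-51833290, minus strand), an organiser of chromatin loops in T cells, had 168 and 176 RPKM at rest. The Th0 cultures went through 436, 271, 169, 136, 118 and 92.0 RPKM and the Th1 cultures through 263, 138, 97.9, 105, 91.4 and 84.6 RPKM. The Th2 cultures went through 483, 273, 196, 183, 192 and 145 RPKM. All conditions were highest at 4 h, and from then on Th1 was below Th0 and Th2 above both at each time. The rise at 4 h was 1.14 ± 0.39 (adjusted p = 0.0314), and the fall from 4 to 12 h was -1.36 ± 0.34 (adjusted p = 0.00360). The call at 4 h was lost without resting replicate 1 (adjusted p = 0.147), without resting replicate 2 (adjusted p = 0.119) and without the Th0 cultures (adjusted p = 0.136), and leaving out Th2 cultures brought it to 0.97, under 2-fold.

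Id2 (chr12:25093799-25097140, minus strand) had 103 RPKM (95% Poisson interval 99.5 to 107) and 104 RPKM (100.5 to 108) at rest. In Th0 cultures it had 34.8, 44.4, 38.2, 41.2, 36.5 and 40.6 RPKM, and in Th1 cultures 56.2, 77.9, 60.4, 70.6, 58.0 and 45.6 RPKM. In Th2 cultures it had 47.7, 44.1, 36.0, 34.1, 35.7 and 41.7 RPKM. The cultures were all below rest, and the Th1 culture was the highest at all 6 times. Id2 was 2.28-fold lower at 4 h (-1.19 ± 0.32, adjusted p = 0.00874) and 2.42-fold lower at 24 h (-1.28 ± 0.32, adjusted p = 0.00215). The call at 4 h was lost without resting replicate 1 (adjusted p = 0.0586), without resting replicate 2 (adjusted p = 0.0599) and without the Th0 cultures (adjusted p = 0.0673), and the difference at 16 h was -0.94, under 2-fold, when Th2 cultures were left out.

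Id3 (chr4:136143497-136145755, plus strand) had 21.5 RPKM in each resting library. Th0 cultures had 11.3, 15.2, 30.6, 34.8, 33.4 and 35.4 RPKM, and Th1 cultures 13.7, 30.3, 33.7, 42.7, 46.8 and 43.6 RPKM. Th2 cultures had 13.1, 24.5, 33.9, 31.6, 28.2 and 18.004 RPKM. All conditions were below rest at 4 h and above it at 12, 16 and 20 h, and at 24 h Th2 was again below rest while Th0 and Th1 were not. Id3 rose between 4 and 12 h (1.34 ± 0.27, adjusted p = 0.000796); its differences from rest did not reach 2-fold at any time. Per unit of transcript length, the ratio of Id3 to Id2 was 0.208 and 0.206 at rest and 0.873, 0.957 and 0.432 in Th0, Th1 and Th2 at 24 h.

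Bcl6 (chr16:23965052-23988852, minus strand), the repressor that directs follicular helper cells, had 7.56 and 7.31 RPKM at rest, the lowest of the 10 genes. It had 26.1, 16.1, 16.8, 12.5, 8.00 and 4.64 RPKM in Th0 cultures and 24.6, 20.0, 13.8, 10.2, 6.18 and 4.53 RPKM in Th1 cultures. Th2 cultures had 16.2, 29.2, 17.9, 10.3, 6.05 and 4.78 RPKM. Every culture up to 16 h was above rest and every culture at 24 h below it, and the Th2 peak came at 8 h where Th0 and Th1 peaked at 4 h. Bcl6 was 2.82-fold higher at 4 h (1.49 ± 0.22, adjusted p = 7.67e-05) and then fell 3.22-fold from 12 to 24 h (-1.69 ± 0.20, adjusted p = 9.96e-06), a larger fall than that of all but 0.459% of genes. At 24 h the difference from rest was -0.62 ± 0.22 (adjusted p = 0.0194), short of 2-fold. The rise at 12 h, 1.06 ± 0.22, was just under 2-fold, at 0.99, when Th2 cultures were left out or values were rescaled without haemoglobin genes.

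Between 4 and 12 h, 1 of the 10 genes was higher (Id3, beside 8.08% of all genes) and 2 lower (Axin2 and Satb1, beside 8.24%). Between 12 and 24 h, 0 were higher (beside 3.12%) and 1 lower (Bcl6, beside 1.93%). In these bulk samples, fewer cells of a type and less RNA per cell cannot be told apart.

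**Figure D2:**
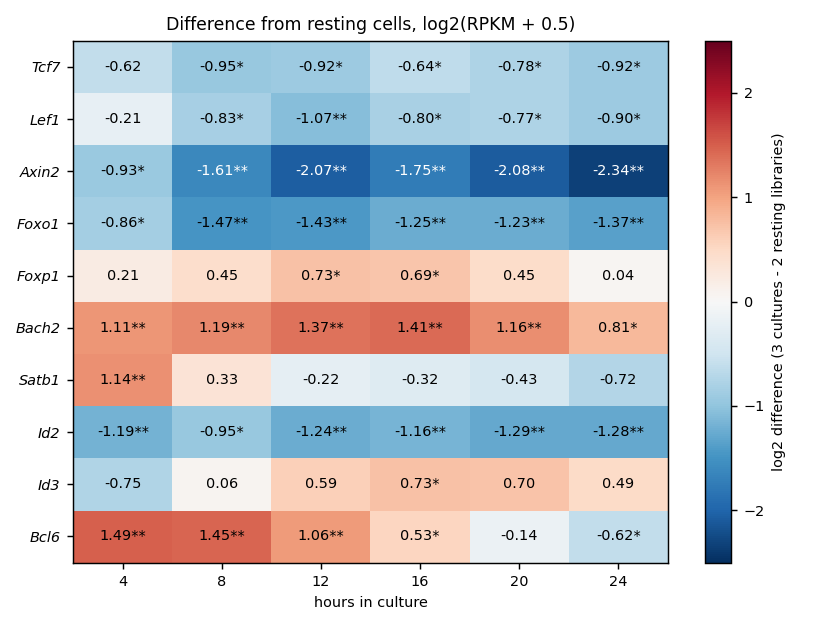
Log2 difference of log2(RPKM + 0.5) between the 3 cultures of a time point and the 2 resting libraries (colour and printed value) for each gene (rows) and time (columns, hours); 1 asterisk marks an adjusted p below 0.05, and 2 asterisks mark genes that also changed 2-fold or more. Axin2 reaches -2.34 at 24 h, and Bcl6 goes from 1.49 at 4 h to -0.62 at 24 h.

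Skewing conditions were compared over the 6 time points with the time point as a factor. With both the p and the 2-fold limit, 0 of the 10 genes differed for Th2 against Th0 (beside 2.01% of 10737 genes), Th2 against Th1 (1.96%) or Th1 against Th0 (0.494%), the largest difference being 0.92. With no limit on size, a reading added after the values were seen, 1 gene was higher (Satb1, beside 12.9%) and 3 lower (Tcf7, Lef1 and Axin2, beside 16.7%) in Th2 than in Th0. For Th2 against Th1, Satb1 was higher (1 of 10, beside 3.49%) and Id2 lower (1 of 10, beside 8.71%). For Th1 against Th0, Id2 was higher (1 of 10, beside 0.522%) and Satb1 lower (1 of 10, beside 1.75%).

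Satb1 gave the largest difference between conditions. Calls in this and the next paragraph are those with no limit on size, the reading added after the values were seen. It was higher in Th2 than in Th1 at 6 of 6 times, 1.89-fold over the course (0.92 ± 0.10, adjusted p = 8.54e-06), and 0.699% of all genes had a larger difference in that direction. It was lower in Th1 than in Th0 at 6 of 6 times (-0.56 ± 0.10, adjusted p = 0.00491) and higher in Th2 than in Th0 at 6 of 6 times (0.36 ± 0.10, adjusted p = 0.0135). The latter was not called without the 20 h cultures (adjusted p = 0.0644), and the difference of Th1 from Th0 was not called without the 12 h cultures (adjusted p = 0.0621) or with 12 to 24 h alone (adjusted p = 0.0649). Id2 stood out in Th1: it was higher than in Th0 (0.62 ± 0.10, adjusted p = 0.00344) and than in Th2 (Th2 minus Th1 -0.61 ± 0.10, adjusted p = 0.000856), each at 6 of 6 times.

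Tcf7, Lef1 and Axin2 were lower in Th2 than in Th0 with no limit on size (3 of 10, beside 16.7% of all genes), and none reached 2-fold. Relative to Th0 the differences were -0.49 ± 0.11 for Tcf7 (adjusted p = 0.00498), -0.48 ± 0.10 for Lef1 (adjusted p = 0.00247) and -0.63 ± 0.10 for Axin2 (adjusted p = 0.000417), each lower at 6 of 6 times. With 12 to 24 h alone the difference of Tcf7 was -0.27 (adjusted p = 0.0404). Relative to Th1 the Th2 differences of these 3 genes were -0.30, -0.22 and -0.28 and did not pass. Foxo1, Foxp1, Bach2 and Bcl6 did not pass in any of the 3 comparisons; their log2 differences lay between -0.20 and 0.06. For Id3 the Th2 minus Th1 difference was -0.46 ± 0.16 (adjusted p = 0.0676), with Th2 below Th1 at 5 of 6 times.

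Whether a difference between conditions changed with the hours was tested with an interaction term. The difference of Th2 from Th0 changed with time for 1 of the 10 genes, Id3 (beside 5.15% of all genes), by -0.063 ± 0.015 log2 units per hour (adjusted p = 0.0314). Next came Satb1 (0.034 ± 0.010 per hour, adjusted p = 0.0537) and Foxp1 (-0.039 ± 0.017 per hour, adjusted p = 0.186), which did not pass. The Th2 level of Id3 was 1.61 times that of Th0 at 8 h and 0.509 times at 24 h. Without the 24 h cultures the slope was -0.043 with an adjusted p of 0.257, and it was also not called without the 12, 16 or 20 h cultures (adjusted p of 0.0524, 0.0688 and 0.0934). For Th2 against Th1 and Th1 against Th0, 0 of 10 genes passed (beside 1.09% and 0.0279%). Id3 came nearest for Th2 against Th1 (adjusted p = 0.0981) and Satb1 for Th1 against Th0 (adjusted p = 0.267).

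**Figure D3:**
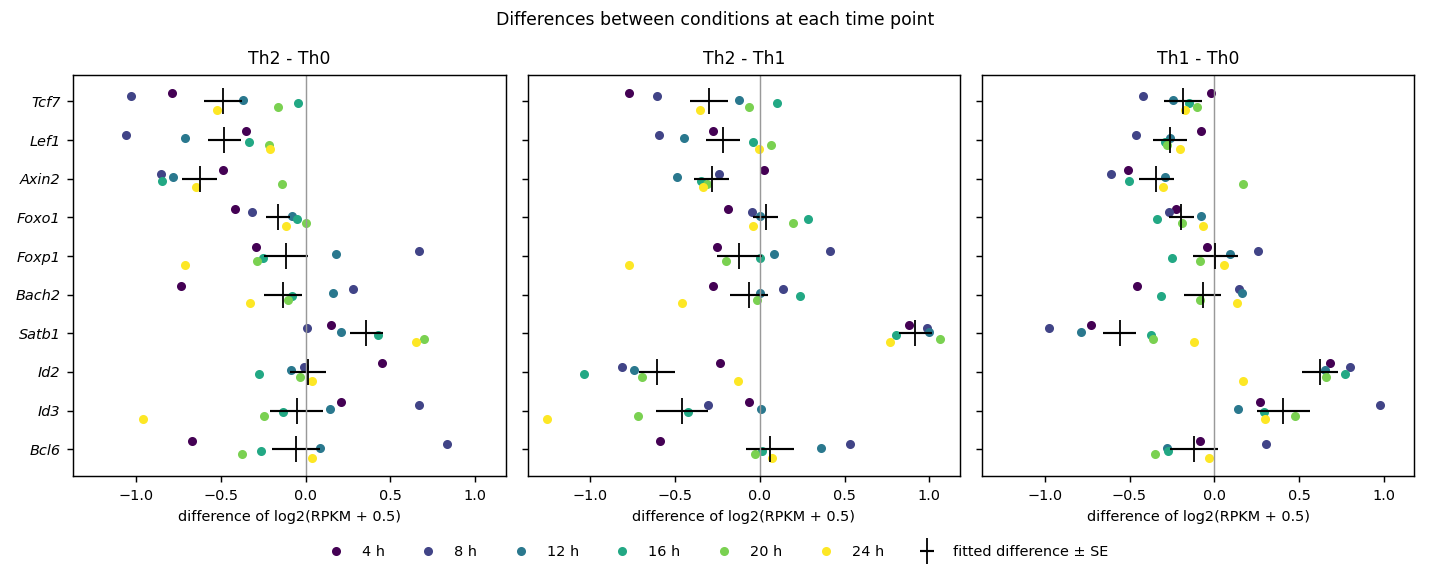
Difference of log2(RPKM + 0.5) between conditions (horizontal axes) for each gene (rows), with 1 coloured point per time point and a black bar for the fitted difference ± SE over 6 time points. All 6 points of Satb1 are on the positive side for Th2 against Th1, and all 6 of Id2 for Th1 against Th0.

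After 16 h of activation, actinomycin was added and RNA followed for 4 h. RPKM is relative to the RNA that remains, so a slope says how a gene moved against the others; the median slope of the 10571 genes tested was 0.00 log2 units per hour. Of the 10 genes, 4 fell (Foxo1, Foxp1, Bach2 and Bcl6, beside 12.0% of all genes) and 0 rose (beside 8.95%).

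Foxo1 went from 22.97 RPKM (95% Poisson interval 22.2 to 23.8) at 0 h to 16.1 (15.3 to 16.8) at 1 h, 7.95 (7.42 to 8.51) at 2 h and 6.87 (6.37 to 7.41) at 4 h. None of the 4 intervals overlapped, although those of 2 and 4 h lay close together. The share of other genes so separated was not counted. Its slope was -0.43 ± 0.07 (adjusted p = 2.21e-07), and 0.672% of genes had a lower one. The SE and p-value of this and the other slopes draw mostly on a spread shared over all genes tested. They say little about how far a single gene's 4 values lie from a line. Foxp1 had 137, 137, 82.1 and 78.3 RPKM at 0, 1, 2 and 4 h, a step between 1 and 2 h rather than a line, with a slope of -0.23 ± 0.06 (adjusted p = 0.00105). Bcl6 had 9.39, 6.88, 4.89 and 4.64 RPKM (-0.23 ± 0.08, adjusted p = 0.0192), and Bach2 had 64.0, 51.2, 40.0 and 41.0 RPKM (-0.16 ± 0.06, adjusted p = 0.0362). In all 4 genes most of the drop was over by 2 h. Without the 0 h library the slopes of Foxp1, Bach2 and Bcl6 were not called (adjusted p of 0.124, 0.685 and 0.488); those of Bach2 and Bcl6 were also not called without the 1 h library (adjusted p of 0.134 and 0.0710) or the 4 h library (0.0708 and 0.0559). Without the 0 h library the slopes of Foxp1, Bach2 and Bcl6 were -0.23, -0.09 and -0.15. Without the 4 h library all 4 slopes were steeper, at -0.74 for Foxo1, -0.37 for Foxp1, -0.34 for Bach2 and -0.44 for Bcl6. Bach2 was also not called with quantile normalization (adjusted p = 0.0983) or without the intensity trend (adjusted p = 0.128).

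The other 6 genes did not pass. Tcf7 had 267, 289.9, 303 and 324 RPKM, a share that went up at each step, and Id2 had 49.9, 46.4, 51.2 and 52.0 RPKM. Lef1 had 36.6, 32.4, 29.2 and 25.7 RPKM, lower at each step, with a slope of -0.12 ± 0.06 (adjusted p = 0.121). Satb1 had 119, 114, 84.4 and 89.5 RPKM, and Id3 had 20.9, 21.5, 15.4 and 18.1 RPKM. Axin2 had 3.59, 3.15, 2.30 and 3.60 RPKM. These 3 genes were lowest at 2 h and higher again at 4 h.

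The library at 0 h of actinomycin also came from cells activated for 16 h, and was set beside the 3 cultures at 16 h with no test. The share of all genes outside the range of these 3 cultures is not given here. Whether members or markers lay outside it more often than other genes was therefore not tested. Foxo1, Foxp1, Bach2, Satb1 and Id2 lay within the range of those cultures. Tcf7 (267 RPKM, against 329.6 to 365), Lef1 (36.6, against 53.6 to 67.7), Axin2 (3.59, against 4.75 to 8.95), Id3 (20.9, against 31.6 to 42.7) and Bcl6 (9.39, against 10.2 to 12.5) lay below it. Marker sums also lay outside the range of the 16 h cultures in that library, in both directions. Summed RPKM was lower for B cell genes (4.03, against 20.3 to 21.97), with 9 of 10 below the range and Cr2 within. It was also lower for NK and innate lymphoid genes (12.1, against 27.1 to 27.9) and CD8 genes (4.96, against 6.59 to 7.26), with all 6 and both genes below. The dendritic cell sum was 3.80, against 5.08 to 5.70, with 3 of 6 genes below the range, 2 within and Siglech above. It was higher for red cell genes (2521, against 1467 to 2036), with all 7 of them above the range, and for regulatory T cell genes (366, against 270.4 to 316), with 3 of 4 above and Il2ra within. The macrophage and monocyte sum (55.0, against 11.9 to 28.8) rested on Lyz2 (45.9, against 4.03 to 15.5); of the other 9 genes 2 lay above the range, 4 within and 3 below. The T cell sum was 2119, against 1964 to 2052, with 3 of 9 genes above the range (Cd3d, Cd3g and Cd28), 4 within and 2 below (Cd4 and Cd5). The part of these cells in the differences was not tested.

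**Figure D4:**
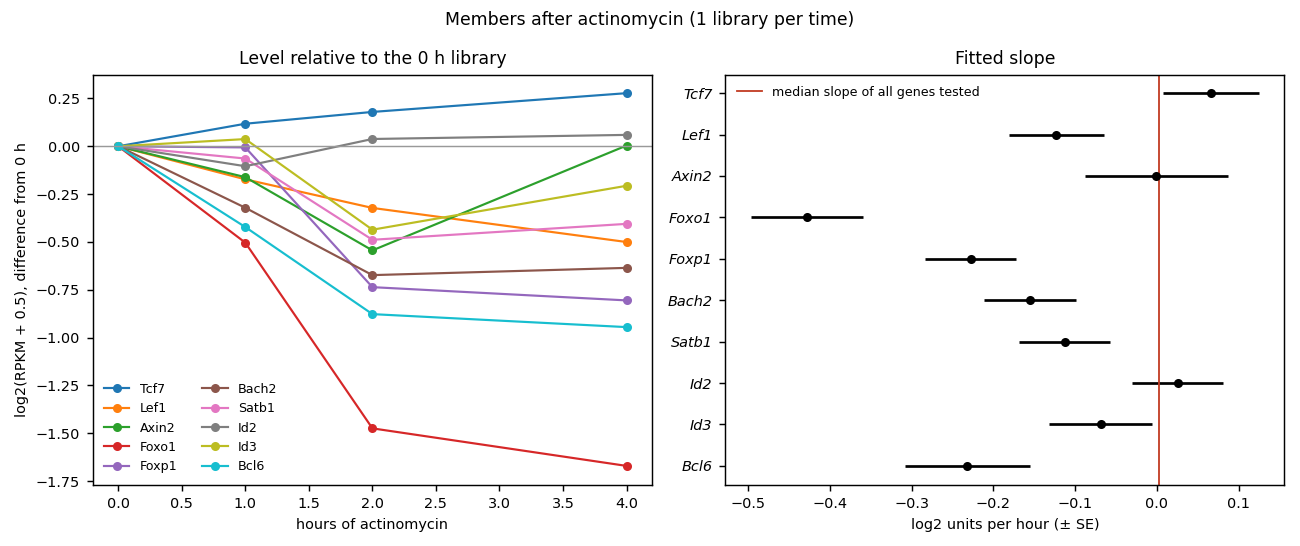
Left, log2(RPKM + 0.5) relative to the 0 h library against hours of actinomycin, 1 line per gene and 1 library per time; right, fitted slope ± SE in log2 units per hour, with a red line at the median slope of all genes tested. Foxo1 has the lowest slope at -0.43, and Tcf7 the highest at 0.07.

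Upstream sequences are shown where the promoter of one of these genes holds the motif of TCF and LEF factors or a STAT-type motif, since Wnt and cytokine signals act through these factors. RefSeq lists 21 promoters for the 10 genes (GRCm38.p6), and the 250 bases before each start were searched on both strands. The TCF/LEF motif CTTTGAA was found in 1 of the 21 (Foxp1), beside 4.46% of 32851 promoters; CTTTGAT (3.21%), the forkhead motif GTAAACA (3.17%) and the AP-1 motif TGAGTCA (4.46%) were found in none. TTCNNNGAA, shared by STAT factors and by BCL6, was found in 3 promoters (Bach2 and both of Bcl6), beside 7.02%, and the same letters with 4 bases between TTC and GAA, the spacing STAT6 prefers, in 1 (Lef1), beside 5.85%. The E-box CAGGTG, common in promoters and not shown, was found in 2 (Foxp1 and Satb1), beside 17.2%. The promoter of Bcl6 inside the gene (chr16:23981351-23981463, minus strand) holds TTCNNNGAA 3 times, starting 168, 122 and 88 bases before the start of transcription, and the outer one (chr16:23988950-23988982, minus strand) holds it once. The other windows are Bach2 at chr4:32417283-32417315 (plus strand), Lef1 at chr3:131112648-131112681 (plus strand) and Foxp1 at chr6:99266702-99266732 (minus strand, motif on the other strand). None of these 5 windows overlaps an annotated exon. Capitals mark the motif; a match describes the letters and not a bound site.
Bcl6 inner promoter: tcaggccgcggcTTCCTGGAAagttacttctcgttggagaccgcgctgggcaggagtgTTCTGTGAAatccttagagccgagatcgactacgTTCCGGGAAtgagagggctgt
Bcl6 outer promoter: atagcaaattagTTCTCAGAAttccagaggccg
Bach2: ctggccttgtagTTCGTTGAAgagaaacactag
Lef1: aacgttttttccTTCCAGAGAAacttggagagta
Foxp1: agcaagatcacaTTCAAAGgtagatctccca

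The most similar courses were sought among the 10897 genes by Pearson's r of log2(RPKM + 0.5) over the 20 libraries, which share time points and a pool of cells. For 9 of the 10 genes the closest were Fry for Axin2 (r = 0.98), Il16 for Lef1 (0.96), Arsb for Foxo1 (0.96), Psd for Bach2 (0.96), Arhgap17 for Foxp1 (0.95), Ogt for Bcl6 (0.95), Wdr26 for Satb1 (0.94), Snx10 for Id2 (0.94) and Cd6 for Id3 (0.92). Among the 10 genes themselves, Lef1 and Axin2 had r = 0.88, Axin2 and Foxo1 0.86, Tcf7 and Lef1 0.83, Lef1 and Foxo1 0.83, Tcf7 and Foxo1 0.82, Foxp1 and Bach2 0.78 and Tcf7 and Axin2 0.77, while Satb1 and Id3 had r = -0.86.

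Genes of the pathways around these regulators were taken from 10 lists, whose counts stand beside 12.7% of all genes higher and 17.4% lower at 24 h. Of 21 Wnt receptors and regulators, 8 passed the filter; at 24 h 0 were higher and 1 lower, Rnf43, a ligase that removes Wnt receptors, with 8.42 and 6.73 RPKM at rest and 1.401, 1.80 and 1.97 RPKM in Th0, Th1 and Th2 (-1.86 ± 0.29, adjusted p = 4.49e-05). Of 10 tested genes of the destruction complex none passed at 24 h (median -0.44, beside -0.04 over all genes). Of 9 tested cofactors of beta-catenin and TCF, 3 were lower, beside 17.4% of all genes: Bcl9l (-2.18 ± 0.34), the Groucho-related Aes (-1.37 ± 0.26) and Tle4 (-1.18 ± 0.15). Aes went from 212 and 226 RPKM at rest to 88.5, 91.2 and 74.0 RPKM at 24 h. Of 13 other feedback targets of Wnt, 3 were tested; Rnf43 was lower and Myc, which activation also induces, higher (2.58 ± 0.41, adjusted p = 4.29e-05), and the other 10 were under the filter.

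The FOXO family and genes that FOXO1 maintains moved in the direction of Foxo1 in most cases: of 17 tested, 11 were lower (beside 17.4% of all genes) and 1 higher (beside 12.7%) at 24 h, with a median of -1.58 beside -0.04. At 4 h 0 were lower (beside 7.97%) and 1 was higher (beside 2.61%). S1pr1 fell from 132 and 135 RPKM to 17.0, 11.2 and 8.94 RPKM (-3.43 ± 0.57, adjusted p = 7.04e-05), Klf2 by -3.39 ± 0.54 and Pik3ip1 by -3.07 ± 0.62. Ccr7, the lymph node homing receptor, went the other way, from 125 and 131 RPKM to 384, 379 and 244 RPKM (1.36 ± 0.20, adjusted p = 2.65e-05). Against Th0, 6 of 17 were lower in Th2 (beside 2.01% of genes called in either direction), and against Th1 4 were (beside 1.96%), with 0 higher in either, among them Il7r (-1.45 ± 0.19 against Th1), while Foxo1 itself did not pass.

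Of the E proteins and other Id genes, 4 of 5 were tested. Tcf4 was lower at 24 h (-1.27 ± 0.19, adjusted p = 2.04e-05), and Id1 was higher in Th2 than in Th1 (2.15 ± 0.33, adjusted p = 0.000287), with 3.12, 1.61 and 22.2 RPKM in Th0, Th1 and Th2 at 24 h. Among 10 tested antagonists and partners of BCL6 and BACH2, Irf4 was higher at 24 h (from 10.4 and 10.5 to 256, 272 and 295 RPKM; 4.65 ± 0.24) and 3 were lower: Prdm1, which encodes the antagonist BLIMP-1 (-1.66 ± 0.23), Maff (-1.22 ± 0.24) and Mafk (-1.17 ± 0.17). Prdm1 had 3.76 and 3.96 RPKM at rest and 0.949, 1.22 and 0.550 RPKM at 24 h. Of 11 tested follicular helper genes, 4 were higher, led by Cd200 (3.51 ± 0.29), Pdcd1 (2.42 ± 0.28) and Icos (2.21 ± 0.14), and 4 lower, led by Maf (-2.51 ± 0.23), Il6ra (-2.20 ± 0.31) and Tox2 (-1.87 ± 0.28).

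Among 2 tested relatives of Foxp1 and Satb1, Foxp4 was higher at 24 h (1.10 ± 0.24, adjusted p = 0.000865). Of 21 tested other regulators of resting T cells, 13 were lower (beside 17.4% of all genes) and 0 higher (beside 12.7%) at 24 h, with a median of -1.12, led by Klf2, Tob1 (5.64-fold) and Klf3 (5.27-fold). Between Th2 and Th1, Gata3, the Th2 regulator, was 3.03-fold higher in Th2 (SE 0.14 on the log2 scale, adjusted p = 1.24e-06) and Actn1 lower (-1.05 ± 0.12, adjusted p = 1.45e-05).

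**Figure D5:**
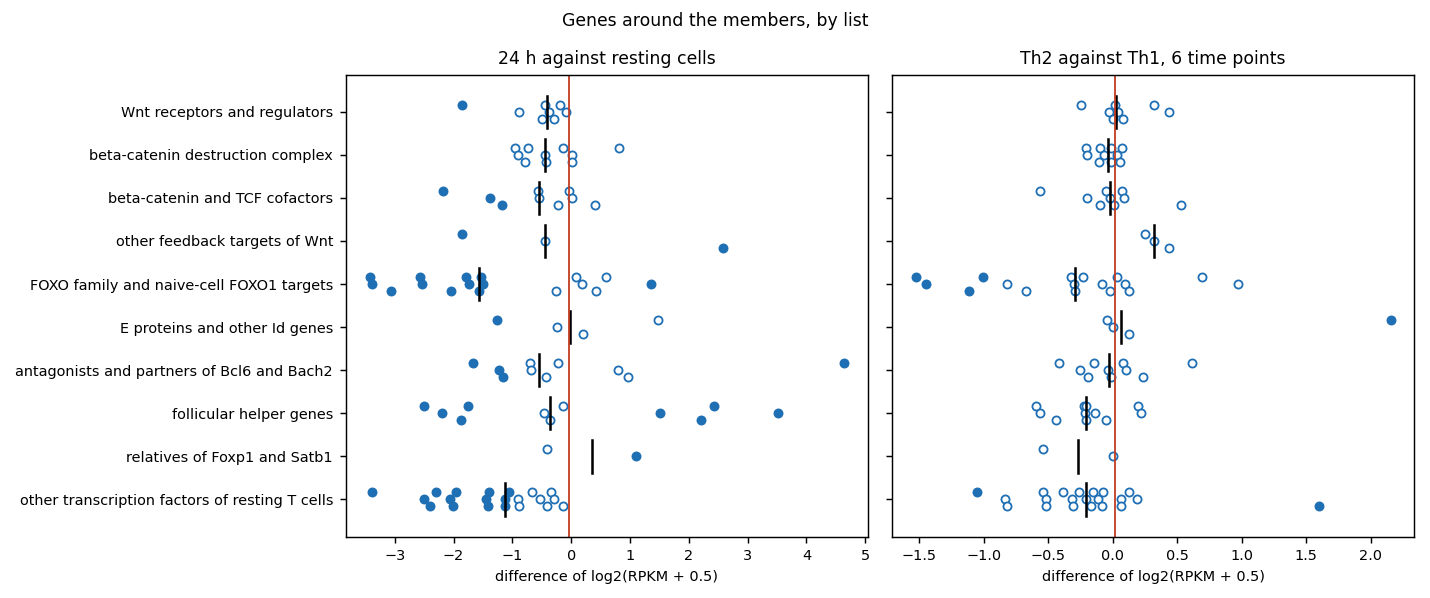
Log2 difference of the tested genes of each list (rows) at 24 h against resting cells (left) and for Th2 against Th1 (right); filled points passed the test, open points did not, black bars are list medians and the red line is the median of all genes tested. FOXO-related genes have a median of -1.58 at 24 h, and other regulators of resting T cells -1.12.

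Markers of the cells were read in the same libraries. All 9 T cell genes were present, led by Cd3g, and summed to 2394 and 2418 RPKM at rest and to between 1590.5 and 2101 in the cultures with a median of 1988. Cd5 had 137 and 142 RPKM at rest and 254, 306 and 173 RPKM in Th0, Th1 and Th2 at 24 h. Cd28 had 66.5 and 66.7 RPKM and then 127, 137 and 104 RPKM. The other T cell genes were below both resting libraries in all 3 cultures at 24 h. Cd8a and Cd8b1 summed to 12.4 and 12.7 RPKM at rest, 6.59 to 15.7 in the cultures (median 8.61) and 3.81 to 5.90 with actinomycin. Markers of most other cells were lower at 24 h than at rest, as several of the 10 genes were. The sum of 10 macrophage and monocyte genes, led by C1qa, was 578 and 597 RPKM at rest and 8.12 to 79.2 in the cultures (median 24.5), and that of 7 red cell genes found of 9, led by Hbb-bs, was 38837 and 42382 RPKM at rest and 142 to 47109 in the cultures (median 3564). B cell genes (10, led by Cd79b) summed to 80.6 and 90.9 RPKM at rest and 10.9 to 64.2 in the cultures (median 21.5), and NK and innate lymphoid genes (6, led by Klrb1c) to 60.4 and 60.6 RPKM and 21.1 to 50.8 (median 28.3). Members of that sum moved apart: Klrb1c had 18.2 and 20.6 RPKM at rest and 1.39, 1.07 and 3.13 RPKM in Th0, Th1 and Th2 at 24 h, while Eomes, which activated T cells also express, had 8.56 and 8.21 RPKM and then 25.4, 18.3 and 11.6 RPKM. Dendritic cell genes (6, led by Itgax) summed to 11.3 and 13.1 RPKM and 3.24 to 10.3 (median 5.41), and regulatory T cell genes (4, led by Ctla4) to 118 and 111 RPKM and 160 to 409 (median 295). Most of the latter rise was in Il2ra, which activation also induces, with 19.6 and 18.1 RPKM at rest and 256, 276 and 192 RPKM at 24 h. Foxp3 had 23.2 and 22.2 RPKM at rest and 20.7, 24.8 and 9.47 RPKM at 24 h, and Ikzf2 had 12.7 and 13.8 RPKM and then 5.63, 5.56 and 5.50 RPKM. None of the markers was at 0 in both resting libraries. The part of these cells in the falls of Id2, Foxo1, Lef1, Tcf7 and Axin2 was not tested.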

How the data were processed

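Expression was deposited as RPKM for each gene symbol, computed by the authors; the submitters' processing notes name BWA and GRCm38, with no version. All 24 columns matched a labelled sample, and the 1 row without a name was left out. Values were tested as log2(RPKM + 0.5) where the mean reached 1 RPKM, with limma 3.58.1 in R 4.3.3 (lmFit, eBayes with an intensity trend, Benjamini-Hochberg over all genes tested in a comparison). Time points were compared over the 3 conditions and conditions over the 6 time points with time as a factor, so in the former the spread between conditions counts as error; actinomycin slopes rest on 4 libraries. The fits were tried on simulated data with independent noise in each library, a setting that leaves out the shared pool of cells and the serial harvests. Mapped reads came from steps in low values of single-transcript genes. Alternatives changed the pseudocount, filter, scaling, trend and libraries used. Gene lists and named genes (per list up to 3 largest changes each way at 24 h and 2 each way for Th2 against Th1, past the threshold) were fixed by rule; members and lists were chosen with earlier results of these data known. Gene positions are from GENCODE vM21. Overlapping or antisense genes are annotated in exons of Lef1, Axin2, Foxo1, Foxp1, Bach2, Satb1 and Bcl6, and the use of strand in counting is not given in the sources used here. Of the genes this rule and the search for like courses named, 2 are not reported here.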

Additional observations from a re-analysis of the deposited data

Results flagged for a closer look

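The difference in Id3 between Th2 and Th0 cultures changed with time: the interaction of condition and hours was -0.063 log2 units per hour (limma, adjusted p = 0.0314), with Th2 above Th0 at 4, 8 and 12 h and below it at 16, 20 and 24 h. This was 1 of the 10 genes, beside 5.15% of all genes. The call was lost in 5 of 13 alternatives: with no filter on the mean, and without the cultures of 12, 16, 20 or 24 h.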

How the results depend on the processing

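Of 42 calls on the 10 genes, tried under 563 alternatives in all, 30 held under every alternative run, and 33 alternatives of the other 12 lost the call. None reversed direction. The calls between conditions in this tally are those with no limit on size, the reading added after the values were seen. With the 2-fold limit none of the 10 genes differed between conditions. Counts of genes that moved by more than 1.5 times were as follows. Genes higher at 4 h went from 284 to 501 with quantile normalization. With a mean of at least 5 RPKM, genes lower went from 868 to 425 at 4 h, 1359 to 714 at 8 h, 1787 to 1005 at 12 h, 1579 to 855 at 16 h, 1749 to 999 at 20 h and 1891 to 1147 at 24 h, and from 898 to 559 between 4 and 12 h, and genes higher between 12 and 24 h went from 340 to 181; fewer genes were tested there. Genes lower between 12 and 24 h went from 210 to 131 without the Th1 cultures. Genes whose Th2 minus Th0 difference changed with time went from 553 to 258 with no filter, and to 3035, 303, 246, 84 and 152 without 4, 12, 16, 20 and 24 h. Genes rising under actinomycin went from 946 to 295 with no filter, and to 349, 436, 1532 and 116 without the 0, 1, 2 and 4 h library; genes falling went from 1267 to 403 with no filter, and to 307, 712 and 420 without 0, 1 and 4 h. For these the cause was not tested.

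Leaving out 1 resting library, assumed to vary like the other groups, gave 220 to 233 genes higher and 728 to 749 lower at 4 h, 646 to 682 and 1215 to 1242 at 8 h, 1146 to 1159 and 1653 to 1669 at 12 h, 1189 to 1220 and 1422 to 1455 at 16 h, 1372 to 1403 and 1606 to 1623 at 20 h, and 1378 to 1393 higher and 1759 to 1779 lower at 24 h. With no filter, the slopes of Foxp1 (adjusted p = 0.0739), Bach2 (0.132) and Bcl6 (0.131) and the Id3 interaction (0.0849) were not called. At 24 h the all-gene median moved by 0.13 with median-of-ratios scaling, 0.15 with quantile normalization and -0.11 without haemoglobin genes. No paired analysis was possible because the groups share fewer than 2 replicate numbers, but cultures of 1 condition can be blocked. With the cultures alone and condition as a block, chosen after seeing the data, the calls on Axin2, Satb1 and Id3 between 4 and 12 h and on Bcl6 between 12 and 24 h held (highest adjusted p = 9.51e-05), with 884 genes higher and 985 lower, and 350 higher and 273 lower. Each culture and actinomycin time is 1 library, depth limits only low genes, and no protein was measured.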
